A study of Mus musculus with 6 samples.

Results

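Translation factors are the proteins that carry a ribosome onto an mRNA and move it along the message. They were examined as the rows of the gene count table whose symbol starts with Eif1 to Eif6 or with Eef1 or Eef2, leaving out pseudogene rows and the eIF2 kinases (Eif2ak). This rule uses the symbol only, and it picked 85 of the 56792 rows. RNA sequencing had been done on C2C12 cells, a wild-type mouse myoblast line that fuses into myotubes when serum is lowered. All 6 libraries came from cells kept for differentiation in medium with 2% horse serum, for 4 days per the series title. In 3 libraries the cells were given 1 µM lenvatinib, an inhibitor of the receptors for vascular endothelial and fibroblast growth factors and of other receptor tyrosine kinases, and in the other 3 they were not. The labels name one cell line, and do not say whether replicates were separate cultures, whether the untreated cells were given a solvent, or when lenvatinib was added. The p-values below therefore rest on the differences among 6 libraries, which could be technical in part.

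In translation initiation, eIF2 brings the initiator tRNA to the small ribosomal subunit, eIF3 holds the subunit ready for the mRNA, and eIF4E, eIF4G and eIF4A bind the cap of the mRNA and unwind its leader. In elongation, eEF1A brings each aminoacyl-tRNA, the eEF1B complex recharges eEF1A with GTP, and eEF2 moves the ribosome to the next codon. Signaling through mTORC1, which growth factors and amino acids activate, frees eIF4E from its inhibitors, the 4E-BPs, and holds back the eEF2 kinase.

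With lenvatinib, the transcripts of the main elongation factors fell by small amounts, together with those of 4 eIF3 subunits, of the helicase cofactor eIF4B and of eIF1A. Transcripts of the eEF2 kinase and of 4E-BP1 rose. Those of 4E-BP2, of eIF4E and of Eif1ad rose too, but these calls were lost in some other settings given below. The same holds for the falls of the eIF3 subunits e and f. Most of the other initiation factors did not pass the test. Of the 85 members, 62 had enough counts to be tested; 13 of these were lower and 5 higher with lenvatinib at an adjusted p under 0.05, and 44 did not pass. The 18 called members are 29.0% of those tested, close to the 28.2% (4228 of 14989) of all rows that were called, so the number called is not a feature of the translation factors. The split was 21.0% lower and 8.06% higher among the tested members, beside 14.9% lower and 13.3% higher among all rows tested. Without the Eif1ad copies, which are not taken as independent of each other, it was 16.9% lower and 8.47% higher, closer to all rows. The median log2 fold change was -0.021 over the tested members and 0.003 over all rows tested. Apart from 3 rows of the Eif1ad copies, the largest change of a called member was 0.313 in size on the log2 scale.

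Levels are given as CPM, counts scaled to a common library total with TMM factors. A value such as -0.13 ± 0.022 is the log2 ratio of lenvatinib to untreated libraries and its SE, from edgeR's quasi-likelihood test, and p-values were adjusted by Benjamini-Hochberg across all 14989 rows. Library totals ran from 24566768 to 32406563 counts in the lenvatinib libraries and from 25529288 to 28886472 in the untreated ones. Precision was high for these abundant transcripts, with a median SE of 0.035 for the tested members against 0.067 for all rows tested. Among the 32 members at a mean of 100 CPM or more, 12 (37.5%) were called, beside 45.1% of the rows tested at such levels, and 10 (31.2%) were lower, beside 23.4% of those rows. The groups did not overlap in 28 tested members (45.2%), beside 40.1% of all rows tested. At a mean of 100 CPM or more the order was the reverse, with 53.1% of the members and 56.5% of the rows tested. Of the 28, lenvatinib lay above in 10 members and below in 18, beside 19.6% and 20.5% of all rows. The 8 myotube markers were all detected, with a summed level of 14444 to 14529 CPM in lenvatinib libraries and 13722 to 14106 CPM in untreated ones, and 6 of them were higher and 1 lower. Of 6 proliferation markers 5 were tested and 2 rose, the sum being 214 to 229 CPM with lenvatinib and 184 to 216 CPM without it. Sums of the 5 fibroblast markers were 700.3 to 781 CPM with lenvatinib and 595 to 631 CPM without it, and 3 of 5 rose and 1 fell. Macrophage markers summed to at most 4.48 CPM with lenvatinib and 6.39 CPM without it (Adgre1 at 0), and 1 of 2 tested, Cd14, fell. The endothelial sum reached 1.43 CPM with lenvatinib and 0.66 CPM without it, and the adipocyte sum 16.8 CPM with lenvatinib and 24.6 CPM without it (Plin1 at 0). Tek, the 1 endothelial marker tested, did not pass (adjusted p = 0.0645 by edgeR), and of 2 tested adipocyte markers Cebpa fell by 0.70 on the log2 scale. The part of these shifts in the changes of translation factors was not tested. In bulk RNA, fewer cells of a type and less RNA per cell cannot be told apart.

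**Figure D1:**
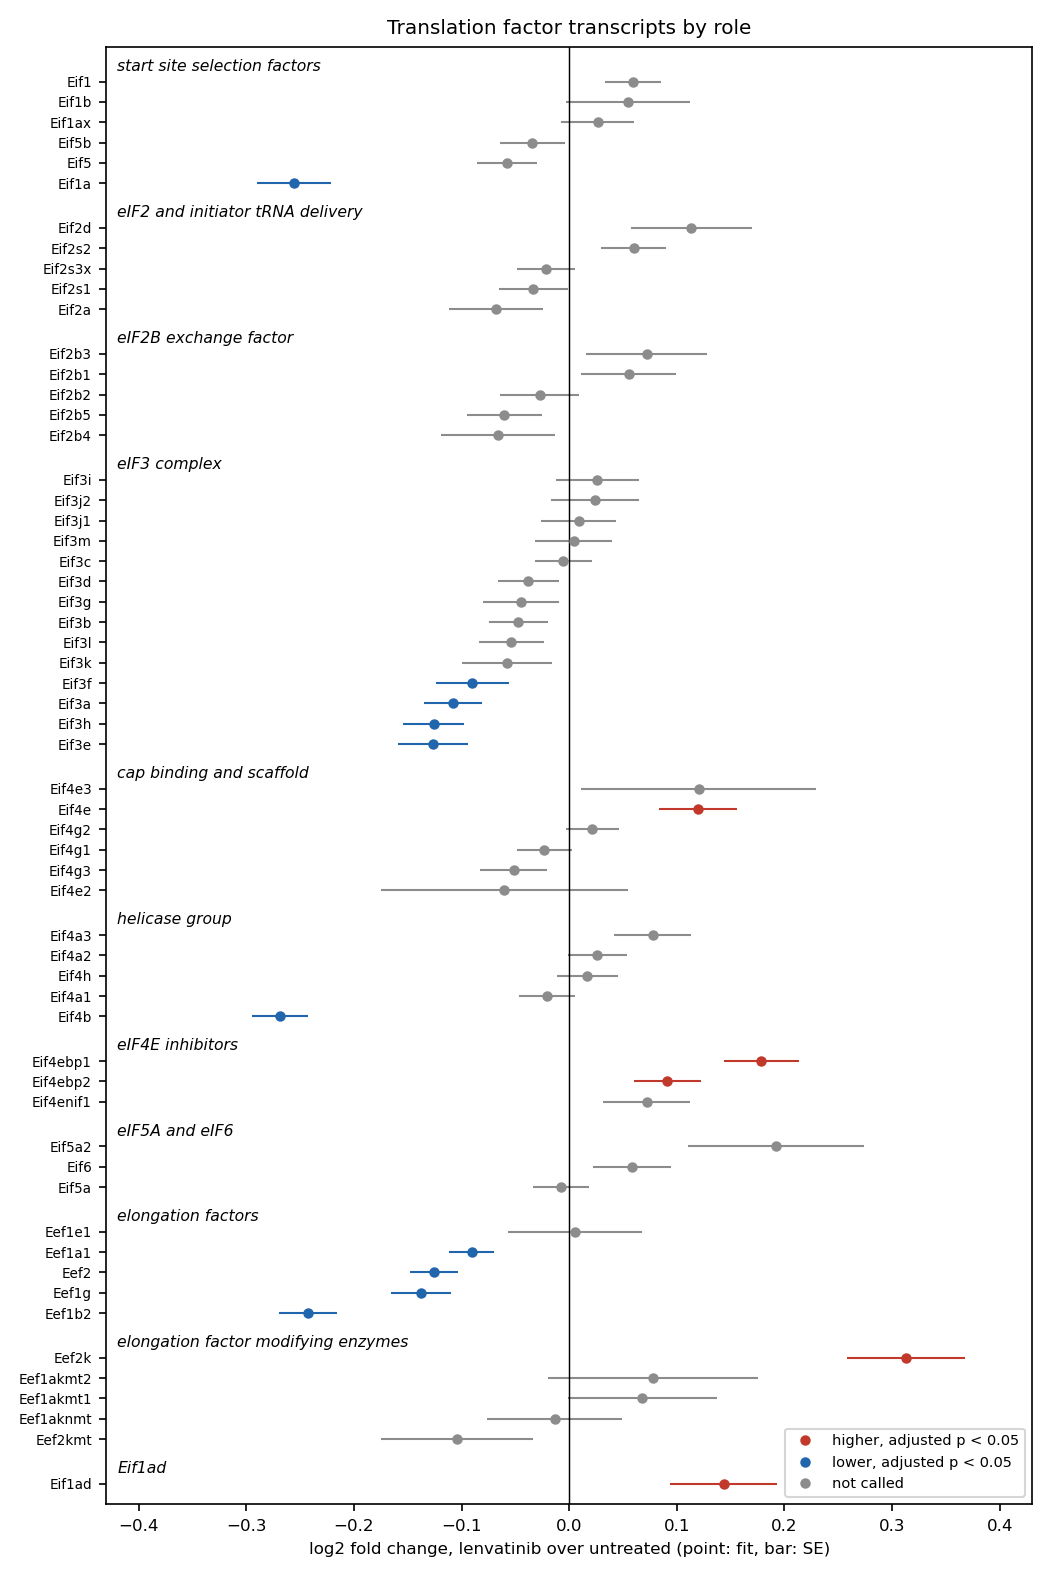
Log2 fold change, lenvatinib over untreated, of the tested translation factors by role, with points for the edgeR estimate and bars for its SE (3 libraries per group). Eef1d, near 0 counts, and the Eif1ad copies are not drawn. The 4 called elongation factors and the 4 called eIF3 subunits lie left of 0, and Eef2k, Eif4ebp1, Eif4ebp2 and Eif4e lie right of it.

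Of the 6 tested elongation factor rows, 4 were called and all 4 were lower (66.7%), beside 14.9% lower of all rows tested and 23.4% lower of the rows at 100 CPM or more, the level of the 4. Eef1a1, which encodes eEF1A, is on chromosome 9 from 78385731 to 78396433 in the coordinates of the deposited table, whose build is not settled here. It had 5191, 5228 and 5057 CPM in the lenvatinib libraries, against 5446, 5539 and 5491 CPM in the untreated libraries. Every lenvatinib library was below every untreated one, and the difference was 1.06-fold (-0.091 ± 0.021, adjusted p = 0.000748). Eef2, which encodes the translocase eEF2 (chromosome 10, 81012465 to 81018332), had 2904, 2973 and 2929 CPM with lenvatinib, against 3168, 3261 and 3178 CPM without it. The fall was 1.09-fold, again with no overlap between the groups (-0.13 ± 0.022, adjusted p = 1.76e-05).

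Eef1b2 and Eef1g, of the eEF1B complex that returns GTP to eEF1A, fell as well. Eef1b2, a catalytic subunit (chromosome 1, 63215984 to 63219645), had 295, 289 and 288 CPM with lenvatinib, against 347, 343 and 342 CPM without it. That is a 1.183-fold fall with no overlap, the largest of the 4 called elongation factors (-0.24 ± 0.027, adjusted p = 1.09e-09). The end of Ndufs1, which rose by 0.10 on the log2 scale, overlaps Eef1b2 on the opposite strand. Eef1g, the gamma subunit (chromosome 19, 8944405 to 8955843), had 273, 261 and 273 CPM with lenvatinib, against 292, 296 and 301 CPM without it (-0.14 ± 0.028, adjusted p = 0.000132). Its groups did not overlap either. Eef1e1, which encodes a small scaffold protein of the tRNA synthetase complex, averaged 28.3 ± 2.15 CPM with lenvatinib and 28.1 ± 2.102 CPM without it (SD, n = 3 each; adjusted p = 0.962 by edgeR).

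Rows near 0 limit what can be said about the remaining elongation factors. Eef1d, the delta subunit of eEF1B, had 11, 2 and 13 counts with lenvatinib, against 14, 18 and 9 counts without it, although its protein is made in nearly all cells. The muscle and nerve form of eEF1A, Eef1a2, had 1 count in the second lenvatinib library and 0 in the other 5. The ribosomal protein gene Rps10 likewise had 4, 0 and 5 counts with lenvatinib and 6, 3 and 8 counts without it. A row near 0 in this table is therefore not read as an absent transcript, and no fold change is drawn from Eef1d or Eef1a2.

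Elongation factor mRNAs, and those of the eIF3 subunits e, f and h, are known from human cells to begin with a terminal oligopyrimidine (TOP) tract, a C at the cap followed by a run of C and U bases, through which mTORC1 controls their translation. Of these 9 genes (Eef1a1, Eef1a2, Eef1b2, Eef1d, Eef1g, Eef2, Eif3e, Eif3f and Eif3h) 8 were tested and 7 fell (87.5%). Beside this, 14.9% of all rows tested and 23.4% of those at 100 CPM or more were lower. Eef1d did not pass, and Eef1a2 was not tested. This group was put together after the values were seen, so its count is a description and has no test. Of the other 54 tested members 6 fell (11.1%) and 5 rose (9.26%). They may hold further TOP mRNAs: Eif2s3x, one of them, has a run of C and T bases at its annotated start. The counts therefore do not compare TOP mRNAs with mRNAs that lack the tract. Start regions from RefSeq (build GRCm38.p6), matched by symbol, were found for 46 of the 62 tested members, but for only 6 of the 13 that fell. None was found for Eef1g, Eif3e or Eif3h. Those of 8 members, picked by hand, are shown to let the annotated starts be read beside the falls. Each line below runs from 5 bases before the annotated start to 25 bases from it on, 30 bases in all, written 5′ to 3′ on the gene's strand. Capitals mark the longest run of at least 5 C or T bases that begins with C.
Eef1a1, fell, chr9:78481700-78481729, minus strand: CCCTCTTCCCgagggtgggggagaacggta
Eef1b2, fell, chr1:63176826-63176855, plus strand: gttccgccggaagtagccgaggccttgcgt
Eef2, fell, chr10:81176626-81176655, plus strand: cgggcgttgacgtcagcggtCTCTTCCgcc
Eif4b, fell, chr15:102073768-102073797, plus strand: tcggacgccgcgccaCCCCCTCgcgctgct
Eif3f, fell, chr7:108934410-108934439, plus strand: gCTCTCTCTCTTTCTCggcaagatggcttc
Eif2s3x, not called, chrX:94212627-94212656, minus strand: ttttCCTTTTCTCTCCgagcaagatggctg
Eif4ebp2, rose, chr10:61452645-61452674, minus strand: cgggacgaccgggcgagagcaggcgagttg
Eef2k (first of 3 annotated starts), rose, chr7:120842826-120842855, plus strand: gcgtcagtcccgccccagccctggtcccag

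A C at the annotated first base followed by at least 4 bases that are each C or T, read on the gene's strand only, was present in 2 of the 46 members (4.35%), Eif3f and Eif2s3x, beside 3.01% of the 27025 genes of the RefSeq table. Eif3f fell and Eif2s3x did not pass the test, although the marked run across its start is 12 bases long. That length is counted from the first C and leaves out the T bases before it. In Eef2 the marked run begins 16 bases into the annotated transcript. In Eef1a1 it is already present at the first base shown, 5 bases before the start, and may begin further upstream. A match is a description of these letters and not a measured transcript start, and no match says only that the letters are not at that annotated base.

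**Figure D2:**
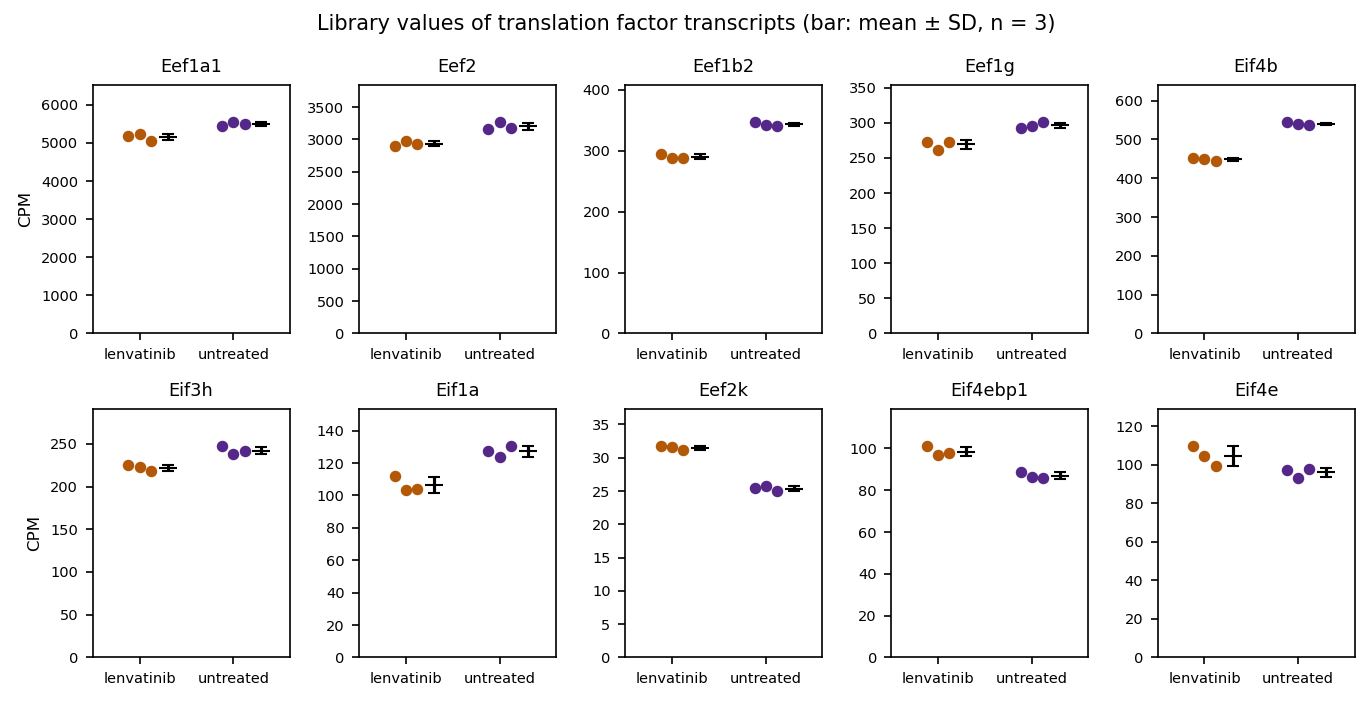
CPM in each library for 10 translation factors, with lenvatinib left and untreated right in each panel; points are libraries and bars give the mean ± SD over 3 libraries, on linear axes from 0. Eef1a1, Eef2, Eef1b2, Eef1g, Eif4b, Eif3h and Eif1a are lower with lenvatinib and Eef2k, Eif4ebp1 and Eif4e higher, with no overlap between the groups in any of the 10.

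The enzymes that modify elongation factors held the largest rise. Eef2k encodes the kinase that phosphorylates eEF2 and so slows elongation (chromosome 7, 120442054 to 120506673). It had 31.7, 31.6 and 31.2 CPM in lenvatinib libraries, against 25.4, 25.7 and 24.98 CPM in untreated ones. The groups lay well apart relative to their spread, and the rise was 1.24-fold (0.31 ± 0.055, adjusted p = 1.69e-05). None of the other 4 tested enzymes passed. The lysine methyltransferase genes Eef1akmt1 and Eef1akmt2 had log2 fold changes of 0.068 ± 0.069 and 0.078 ± 0.097. Those of Eef1aknmt, whose enzyme methylates eEF1A, and of Eef2kmt, the methyltransferase gene of eEF2, were -0.014 ± 0.063 and -0.10 ± 0.071. The span of Eef1akmt2 lies within that of the Fgfr2 row on the same strand, and Fgfr2 rose by 0.77 on the log2 scale, so reads of the pair may not be separable. Eef1akmt3 had at most 3 counts in a library and Eef1akmt4 had none.

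Factors that bind the mRNA cap and unwind the leader gave 1 strong fall. Eif4b encodes eIF4B, which stimulates the helicase eIF4A (chromosome 15, 101982208 to 102005608), and it had the smallest p of all members. Its levels were 452, 449 and 445 CPM with lenvatinib, against 544, 540.3 and 537 CPM without it. The libraries of each group lay close together and far from those of the other, and the fall was 1.205-fold (-0.27 ± 0.026, adjusted p = 4.22e-11). The helicases themselves did not pass. Eif4a1 had 519.6, 511 and 513 CPM with lenvatinib, against 524, 525 and 517 CPM without it (adjusted p = 0.607). For its muscle-rich paralog Eif4a2 the values were 391, 409 and 399 CPM with lenvatinib, against 392.4, 387 and 397 CPM without it (adjusted p = 0.525). In both helicase genes the groups overlapped. Eif4h, a relative of eIF4B in function, differed by 0.017 ± 0.028, and Eif4a3, the helicase of the exon junction complex, by 0.078 ± 0.036 (adjusted p = 0.715 and 0.109).

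Eif4e, the cap-binding protein gene (chromosome 3, 138231940 to 138265457), had 109.5, 105 and 99.5 CPM with lenvatinib, against 97.4, 93.4 and 97.6 CPM without it. The groups did not overlap, but the third lenvatinib library lay close to the untreated ones, and the rise of 1.09-fold (0.12 ± 0.036, adjusted p = 0.0103) was no longer called without the first lenvatinib library (0.086, adjusted p = 0.105) or the second untreated library (0.099, adjusted p = 0.0617). The scaffold genes Eif4g1, Eif4g2 and Eif4g3 differed by -0.023 ± 0.026, 0.022 ± 0.024 and -0.052 ± 0.031. In Eif4g1 the libraries had 718, 737 and 726 CPM with lenvatinib, against 746, 729 and 741 CPM without it, and in Eif4g3 they had 167, 181 and 175 CPM with lenvatinib, against 182, 177 and 182 CPM without it. Both pairs of groups overlapped. The cap-binding relatives Eif4e2 and Eif4e3, at 5.46 to 6.79 CPM, did not pass (adjusted p = 0.752 and 0.46), and Eif4e1b had at most 3 counts in a library.

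Of the inhibitors that hold eIF4E, Eif4ebp1 and Eif4ebp2 rose. Eif4ebp1 encodes 4E-BP1 (chromosome 8, 27750357 to 27766702) and had 101, 96.7 and 97.9 CPM with lenvatinib, against 88.7, 86.4 and 85.9 CPM without it. All lenvatinib libraries were above all untreated ones, by 1.13-fold on average (0.18 ± 0.035, adjusted p = 7.76e-05). For Eif4ebp2 the values were 186, 199 and 187 CPM with lenvatinib, against 176, 185 and 176 CPM without it (0.091 ± 0.031, adjusted p = 0.0233). The second library was the highest of each group there, and the second untreated library came close to the lowest lenvatinib one. Eif4ebp2 lost its call without untreated library 1 or 3, without lenvatinib library 2 and with DESeq2 (adjusted p up to 0.206). Eif4enif1, which encodes the transporter that carries eIF4E into the nucleus, did not pass (0.072 ± 0.040, adjusted p = 0.193), and Eif4ebp3 had 1 count in all.

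The eIF3 complex, the largest initiation factor, was measured in full: all 14 rows of its subunits were tested, 4 fell and none rose. The share lower was 28.6%, beside 14.9% of all rows tested and 23.4% of the rows at 100 CPM or more. The share called in either direction, also 28.6%, was close to the 28.2% of all rows tested, so the number called is not a feature of the complex. Eif3h, with the smallest p of the complex (chromosome 15, 51649954 to 51728919), had 225, 223 and 218 CPM with lenvatinib, against 247, 238 and 242 CPM without it (-0.13 ± 0.028, adjusted p = 0.000522). Eif3a, the large scaffold subunit, had 565, 594 and 599 CPM with lenvatinib, against 636, 626 and 633 CPM without it (-0.11 ± 0.027, adjusted p = 0.00171). In both the groups were apart. Eif3e had 201, 203 and 187 CPM with lenvatinib, against 212, 208 and 224 CPM without it (-0.13 ± 0.033, adjusted p = 0.00304). For Eif3f the values were 119.9, 119 and 116 CPM with lenvatinib, against 121, 132 and 125 CPM without it. Eif3f fell by 0.090 ± 0.034 (adjusted p = 0.0405), and its first untreated library lay just above the lenvatinib ones. Without the third lenvatinib library Eif3e was no longer called (adjusted p = 0.0541), and Eif3f lost its call in 8 of 16 other settings.

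The other 10 eIF3 rows had log2 fold changes from -0.058 (Eif3k) to 0.026 (Eif3i). Eif3c, a core subunit next to eIF3a, averaged 347 ± 2.94 CPM with lenvatinib and 348 ± 4.23 CPM without it (SD, n = 3 each; adjusted p = 0.913 by edgeR), and Eif3b, also of the core, 324 ± 7.58 CPM with lenvatinib and 335 ± 2.58 CPM without it (adjusted p = 0.208). Per kilobase of feature length, the subunits differed by almost an order of magnitude, from 16.2 (Eif3j1) to 138 (Eif3h) CPM per kilobase with lenvatinib and from 16.1 to 150 without it. Their median was 42.0 CPM per kilobase with lenvatinib and 43.9 without it. The feature length counts every annotated exon of a gene, so levels of genes with long rare exons are understated. Eif3j1 and Eif3j2 resemble each other closely, so reads may have been divided between their rows.

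**Figure D3:**
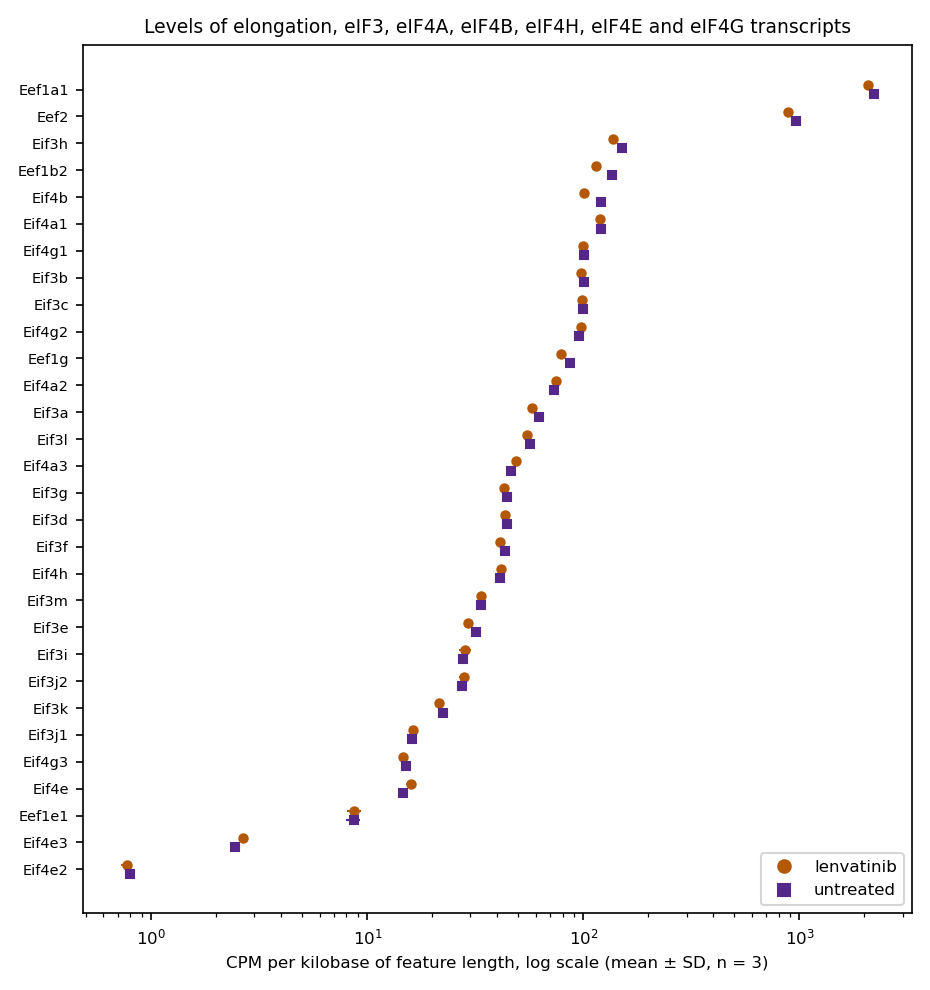
Mean CPM per kilobase of feature length, on a log axis, for tested elongation, eIF3, eIF4A, eIF4B, eIF4H, eIF4E and eIF4G genes, with lenvatinib (circles) above untreated (squares) in each row and bars for the SD over 3 libraries. Eef1a1 and Eef2 stand above all others in both groups, and the distances between groups are small beside those between genes.

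Per kilobase the order of levels was led by Eef1a1, at 2069 ± 36.2 CPM per kilobase with lenvatinib and 2203 ± 18.7 without it, and Eef2, at 883 ± 10.496 with lenvatinib and 963 ± 15.5 without it. Eif1 followed at 235 ± 1.203 with lenvatinib and 226 ± 3.75 without it, then Eif5a at 162 ± 1.64 with lenvatinib and 163 ± 2.00 without it. Next was Eif3h, at 138 CPM per kilobase with lenvatinib and 150 without it. Eef1b2 followed without lenvatinib, at 136, and with it was at 115, below Eif4a1. Without lenvatinib Eif4b and Eif4a1, at 121 ± 0.695 and 120.5 ± 0.941, differed by less than their SD; with it Eif4b was at 100.4 ± 0.827, next to Eif2s3x at 100.6 ± 2.34, and Eif4a1 at 119 ± 1.03. All 85 rows together took 1.90, 1.89 and 1.85% of the counts in lenvatinib libraries, against 1.96, 1.97 and 1.96% in untreated ones. Eef1a1 and Eef2 made up 43.0 to 43.2% of these member counts with lenvatinib and 44.0 to 44.7% without it.

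Among the factors that choose the start codon, Eif1a fell. It encodes eIF1A, which with eIF1 opens the small subunit for scanning, and lies on chromosome 18 from 46730768 to 46749523. Eif1a had 112, 103 and 104 CPM with lenvatinib, against 128, 124 and 130.3 CPM without it, with no overlap (-0.26 ± 0.035, adjusted p = 1.23e-07). Its X-linked paralog Eif1ax had 128, 122 and 126 CPM with lenvatinib, against 126, 116 and 127 CPM without it, with overlapping groups (0.026 ± 0.034, adjusted p = 0.627). The proteins of both genes are near-identical and counting can split reads between such copies, so the values of the pair are uncertain. Eif1 had 506, 502 and 506 CPM with lenvatinib, against 486, 492 and 476 CPM without it; the groups did not overlap, but the difference did not pass (0.059 ± 0.026, adjusted p = 0.092). Its paralog Eif1b, at 27.0, 26.2 and 26.6 CPM with lenvatinib and 26.3, 25.6 and 24.9 CPM without it, did not pass either (adjusted p = 0.533). Eif5, the GTPase-activating protein of eIF2, and Eif5b, which joins the subunits, differed by -0.058 ± 0.028 and -0.034 ± 0.030 and did not pass.

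None of the 5 tested genes of eIF2 and of initiator tRNA delivery passed by edgeR (smallest unadjusted p = 0.0519), nor did any of the 5 subunits of eIF2B, which recharges eIF2 with GTP (0.0893). The eIF2 subunits Eif2s1, Eif2s2 and Eif2s3x differed by -0.033 ± 0.032, 0.060 ± 0.030 and -0.021 ± 0.027. The smallest p of this class was that of Eif2d, an initiation and recycling factor, with 28.9, 30.0 and 30.3 CPM with lenvatinib, against 27.8, 25.9 and 28.7 CPM without it (0.11 ± 0.057, adjusted p = 0.138). With DESeq2 the adjusted p of Eif2d was 0.282. In eIF2B the smallest p was that of Eif2b5, the catalytic subunit, with 89.8, 94.0 and 90.9 CPM with lenvatinib, against 93.9, 96.8 and 95.7 CPM without it (-0.060 ± 0.035, adjusted p = 0.208). The lenvatinib libraries overlapped the untreated ones in Eif2b5 but not in Eif2d. Eif2s3y, the Y-linked copy of Eif2s3x, had 0 counts in all libraries.

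Eif5a encodes eIF5A, which helps ribosomes past stalling stretches such as runs of proline. It had 447, 444 and 438 CPM with lenvatinib, against 452, 442 and 442 CPM without it (-0.0077 ± 0.026, adjusted p = 0.872). Its rarer paralog Eif5a2 had 15.8, 13.2 and 14.4 CPM with lenvatinib, against 12.6, 13.5 and 11.95 CPM without it; the groups overlapped in the second lenvatinib library, and the difference of 0.19 ± 0.082 did not pass (adjusted p = 0.0771). Eif6, which keeps free large subunits from joining, differed by 0.058 ± 0.037 (adjusted p = 0.255).

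Paralog balance was compared as the share of one gene in the counts per kilobase of a pair. For 6 pairs a two-sided exact permutation test over the libraries was run, which cannot go below p = 0.1 with 3 libraries per group. Eif4a2 made up 38.6 ± 0.752% of Eif4a1 plus Eif4a2 with lenvatinib and 37.8 ± 0.467% without it (exact p = 0.2, 0.45 adjusted over the 6 pairs). Eif4ebp1 made up 57.7 ± 1.35% of its pair with Eif4ebp2 with lenvatinib and 56.2 ± 0.971% without it (exact p = 0.3). Eif5a2 was at 1.746 ± 0.151% of its pair with Eif5a with lenvatinib and 1.53 ± 0.101% without it (exact p = 0.2). Eif1b was at 9.13 ± 0.0909% of its pair with Eif1 with lenvatinib and 9.16 ± 0.168% without it (exact p = 0.9), and Eif4g3 at 12.9 ± 0.301% of its pair with Eif4g1 with lenvatinib and 13.1 ± 0.0572% without it (exact p = 0.3). Shares are means ± SD over n = 3 libraries per group. With 1 count of Eef1a2 in all, the eEF1A pair gave no balance to compare. In Eif4a2, Eif4ebp1 and Eif5a2 the difference between the mean shares was larger than the SD of either group, and the test cannot pass at this size, so it shows neither a shift nor a stable balance.

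The 17 rows with numbered names from Eif1ad2 to Eif1ad19 lie together on chromosome 12 between 87541491 and 88296452. They are named for an eIF1A-like domain and are called Eif1ad copies here after their symbols only. Their sequences were not compared with each other, with Eif1ad or with Eif1a. Only 3 had enough counts for a test and all 3 were lower. Eif1ad10 had 20, 23 and 44 counts with lenvatinib, against 54, 49 and 76 counts without it, or 0.81, 0.94 and 1.36 CPM against 2.03, 1.92 and 2.64 CPM (-1.06 ± 0.23, adjusted p = 0.0004). The row of Eif1ad10 is wider than its gene (feature length 1785), so it may hold reads from outside it. Eif1ad7 had 0.97, 0.65 and 0.93 CPM with lenvatinib, against 1.35, 1.45 and 1.81 CPM without it (-0.85 ± 0.26, adjusted p = 0.0112). Eif1ad3 had 0.89, 0.53 and 0.62 CPM with lenvatinib, against 0.98, 1.45 and 1.39 CPM without it (-0.91 ± 0.29, adjusted p = 0.0155). Summed over all 17 rows, the counts were 79, 66 and 113 with lenvatinib, against 145, 150 and 207 without it. Since reads can be split or lost between copies alike in sequence, these are not taken as independent genes and the size of the fall is uncertain. The call of Eif1ad7 was lost without lenvatinib library 2 or untreated library 3, and that of Eif1ad3 without any one of 4 libraries or with DESeq2.

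Eif1ad, on chromosome 19 and also named for an eIF1A-like domain, rose. It had 39.9, 39.1 and 38.5 CPM with lenvatinib, against 36.6, 34.8 and 34.9 CPM without it (0.14 ± 0.050, adjusted p = 0.0259). The groups did not overlap, but the rise was no longer called without lenvatinib library 1 or 2, without untreated library 2 or 3, or with DESeq2 (adjusted p up to 0.0869). Its span overlaps the end of Banf1 on the opposite strand. Eif2c5, a symbol of the Argonaute naming and no translation factor, had 0 counts in all libraries.

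**Figure D4:**
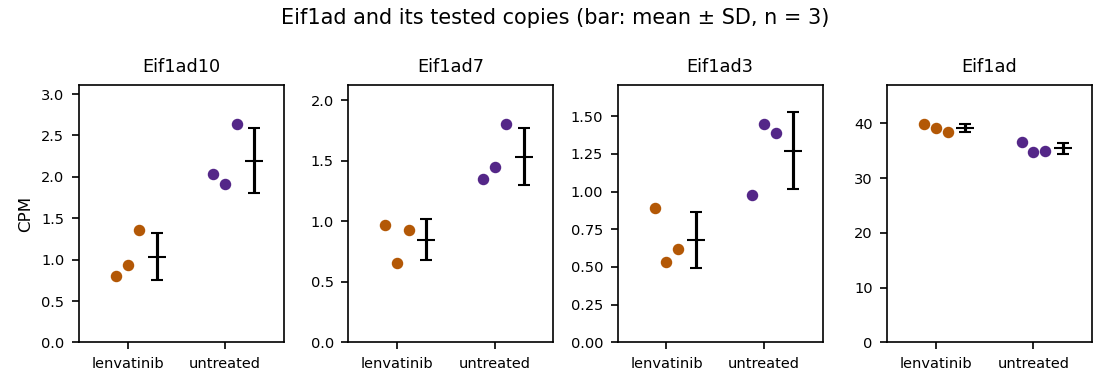
CPM in each library of the 3 tested Eif1ad copies of chromosome 12 and of Eif1ad, with lenvatinib left and untreated right; points are libraries, bars the mean ± SD over 3 libraries, and axes start at 0. The copies lie at or below 2.64 CPM and are lower with lenvatinib, while Eif1ad, at 34.8 to 39.9 CPM, is higher.

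The 23 members without a test were the other 14 Eif1ad copies, which had at most 11 counts in a library, and Eef1a2, Eef1akmt3, Eef1akmt4, Eif2c5, Eif2s3y, Eif4a3l1, Eif4a3l2, Eif4e1b and Eif4ebp3. For these, 3 counts correspond to 0.0926 to 0.123 CPM per library, which covers counting error only.

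Genes around the translation factors were counted from 6 further lists with 80 tested members, of which 10 rose and 10 fell. These 20 of 80 are a share no higher than the 28.2% called among all rows tested, so the lists as a whole do not stand out. In the list of mTORC1 and MNK signaling 2 of 18 rose and 5 fell (38.9% called), with a median of -0.039. Sesn2, an mTORC1 inhibitor of amino acid shortage, averaged 40.6 ± 1.25 CPM with lenvatinib and 30.0 ± 0.506 CPM without it (0.43 ± 0.051, adjusted p = 5.86e-09). Mtor, the kinase gene itself, named after its values were seen, averaged 118 ± 2.64 CPM with lenvatinib and 138 ± 3.55 CPM without it (-0.22 ± 0.032, adjusted p = 6.73e-07). Its inhibitor gene Deptor fell as well (-0.22 ± 0.027), as did Pdcd4, which encodes a repressor of eIF4A (-0.42 ± 0.040, adjusted p = 1.93e-11), while Mknk2, a kinase gene for eIF4E, rose by 0.23 ± 0.027.

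Of 9 eIF2 kinases, phosphatase subunits and partners, 2 rose and 1 fell (33.3% called). Atf4, the transcription factor gene that is translated when eIF2 is phosphorylated, averaged 405 ± 3.89 CPM with lenvatinib and 338 ± 3.81 CPM without it (0.26 ± 0.027, adjusted p = 1.57e-10), Ppp1r15a, which encodes a phosphatase subunit for eIF2, rose by 0.19 ± 0.045, and Eif2ak2, the interferon-inducible kinase gene, fell by 0.20 ± 0.050. Of 13 tested genes of poly(A) binding, termination and recycling 1 rose and 2 fell (23.1% called). Pabpc1, the main cytoplasmic poly(A)-binding protein gene, averaged 635 ± 6.70 CPM with lenvatinib and 737 ± 27.3 CPM without it (-0.21 ± 0.027, adjusted p = 3.21e-08), Paip2 fell by 0.10 ± 0.033 and the recycling factor gene Denr rose by 0.25 ± 0.094. Of 22 genes of cytosolic tRNA synthetases and their scaffolds (27.3% called) 5 rose (Aars, Tars and Mars1, and, named after their values were seen, Gars and Hars, by 0.083 to 0.11) and 1, Qars, fell by 0.13 ± 0.035. None of 8 hypusine and diphthamide enzymes, which modify eIF5A and eEF2, passed by edgeR (smallest unadjusted p = 0.123), and of 10 mitochondrial translation factors only Mrrf did (-0.18 ± 0.064, adjusted p = 0.028).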

How the data were processed

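The authors deposited a table of read counts per gene and library, not normalized, with a feature length in bases. Per the labels' protocols reads were aligned with Hisat2 2.0.1, while the submitters' processing notes name HTSeq 0.6.1 and the build mm10. The annotation, read filters and strand setting were not given in the sources used here. Positions in the table differ from those of GRCm38.p6 for the same genes, are printed as deposited and were not combined with the RefSeq sequences (GRCm38.p6). Without a strand setting, overlapping genes may share reads.

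Counts were tested with edgeR 4.0.16 in R 4.3.3 (TMM factors, filterByExpr with a minimum count of 10 and a minimum total of 15, glmQLFit with robust estimation, glmQLFTest); SEs were computed from the log2 fold change and the F statistic. Groups came from the sample titles. Values per library are given for called members with a log2 fold change of at least 0.25 in size, for the smallest p of each role class and for fixed paralog pairs; other members shown in this way, and genes of the added TOP group, were chosen after their values were seen. The members and lists were chosen with earlier results of these data known. Pairs of replicates differed beyond sampling noise (chi-square per degree of freedom 2.78 to 5.6). That excess was small in size: edgeR's common dispersion gave a biological coefficient of variation of 3.6%. Alternatives were DESeq2 1.42.0, limma-voom (limma 3.58.1), other scalings, filters and thresholds, a replicate block and leaving out each library. Exact tests used scipy 1.17.1.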

Additional observations from a re-analysis of the deposited data

How the results depend on the processing

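All 18 called members kept their direction in every alternative that gave a value, and 11 of them also kept their call in each: Eef1a1, Eef1b2, Eef1g, Eef2, Eef2k, Eif1a, Eif1ad10, Eif3a, Eif3h, Eif4b and Eif4ebp1. The number of members called was 12 to 18 across the alternatives (18 with the replicate block, limma-voom, RLE factors or library totals alone, 17 with upper quartile factors, 14 with DESeq2, 12 at an adjusted p under 0.01) and 13 to 18 when a library was left out. Members called higher numbered 3 with DESeq2, 2 at an adjusted p under 0.01, and 3 to 5 without a library; 3 remained without lenvatinib replicate 1, without untreated replicate 2 or without untreated replicate 3. The cause was not tested. Called members lost their call in up to 5 cases per library left out. Near-0 differences changed sign when a library was left out: Eif5a ranged from -0.0134 to 0.0031 (0.0003 without lenvatinib replicate 3), and the Eif1b share difference from -0.0901 to 0.0671 percentage points (0.00635 without lenvatinib replicate 2); neither was called. Eif5a2 passed without lenvatinib replicate 2 (0.25, adjusted p = 0.0328). Added after seeing the data, leaving out the Eif1ad copies gave 15 called members. Leaving out tested members overlapped on the same strand by a row with a sizeable share of their counts (Eef1akmt2 and Eef1d) gave 18. Neither had been called, so this count could not change and is no check. Eef1b2 and Eif1ad, which overlap Ndufs1 and Banf1 on the opposite strand, were kept. Same-numbered libraries did not deviate together (correlations 0.0217, -0.0782 and -0.00417 over 10002 genes), so the numbers gave no sign of pairing. With 3 libraries per group this cannot exclude that same-numbered cultures were handled together. The replicate block called 4134 rows, against 4228 without it. Depth limits the Eif1ad copies, at or below 2.64 CPM, and all rows near 0.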

Other observations

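Cytosolic ribosomal protein genes, whose mRNAs are also known to carry TOP tracts, were counted after the values were seen. Of 90 rows with such symbols 85 were tested, 39 fell (45.9%) and 2 rose (2.35%), beside 14.9% lower and 13.3% higher of all rows tested, and 23.4% lower and 21.7% higher of the rows tested at a mean of 100 CPM or more. The median log2 fold change of these rows was -0.074. Among the 11 eIF3 rows other than e, f and h, 1 fell, Eif3a, and the median was -0.038.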
